A study of Mus musculus with 6 samples.

Results

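Gsc, Lhx1, Eomes, Fgf8, Tbx6, Cdx1, Mesp1, Mesp2 and Kdr, genes of the organizer and of early mesoderm, were followed in mouse embryonic stem cells exposed to SC1. The 9 genes were taken by name, and their probes were those whose transcript accession belongs to one of them in the RefSeq gene table. All 9 were on the array, with 14 probes, among 37047 genes and transcribed genomic intervals in all. The treated group was J1 cells given 1 µM SC1 for 6 h (3 samples), and the control group was J1 cells given the solvent DMSO for 6 h (3 samples). SC1 (pluripotin) is a synthetic compound known as an inhibitor of both ERK1, a kinase, and RasGAP, which switches off RAS. Both groups were of 1 cell line of strain 129S4/SvJae, adapted to gelatin without feeder cells, in serum replacement medium with the self-renewal cytokine LIF. RNA of each sample was hybridised to 1 single-colour array. Whether the replicates came from separate cultures is not stated, and the p-values therefore reflect only sample-to-sample spread, which may be technical.

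In the embryo, Nodal, WNT and FGF signals at the posterior epiblast switch on the primitive streak programme. High Nodal signalling at its anterior end favours the organizer and endoderm genes Gsc, Lhx1 and Eomes. FGF and WNT signals sustain Fgf8, Tbx6, Cdx1 and the Mesp genes in cells that become mesoderm, and Kdr marks the descendants that form blood and vessels. Embryonic stem cells kept in LIF are not committed to these fates, though some of these transcripts can be detected in them.

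In SC1-treated cells Gsc rose 6.76-fold. Mesp1, Mesp2 and Eomes fell, Mesp1 below the detection call of the array. Fgf8, Lhx1, Tbx6, Cdx1 and Kdr did not pass the test. Changes were thus found in both directions, with 1 gene higher and 3 lower, of which Mesp1 entered the test only through the DMSO arrays. A gene passed when its Benjamini-Hochberg adjusted p over all 25421 genes and intervals tested with limma was under 0.05. Among all of them 38.4% passed, 18.1% higher and 20.2% lower with SC1, so that 4 of 9 is near the share of all genes. The groups were fully separated, every SC1 array on one side of every DMSO array, for 6 of the 9 genes and for 52.1% of all genes. Values below are the signal of a probe as a percentage of the 75th percentile of its array. For a gene with several probes the brightest entered the test. The plot of signal by array shows these values.

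**Figure D1:**
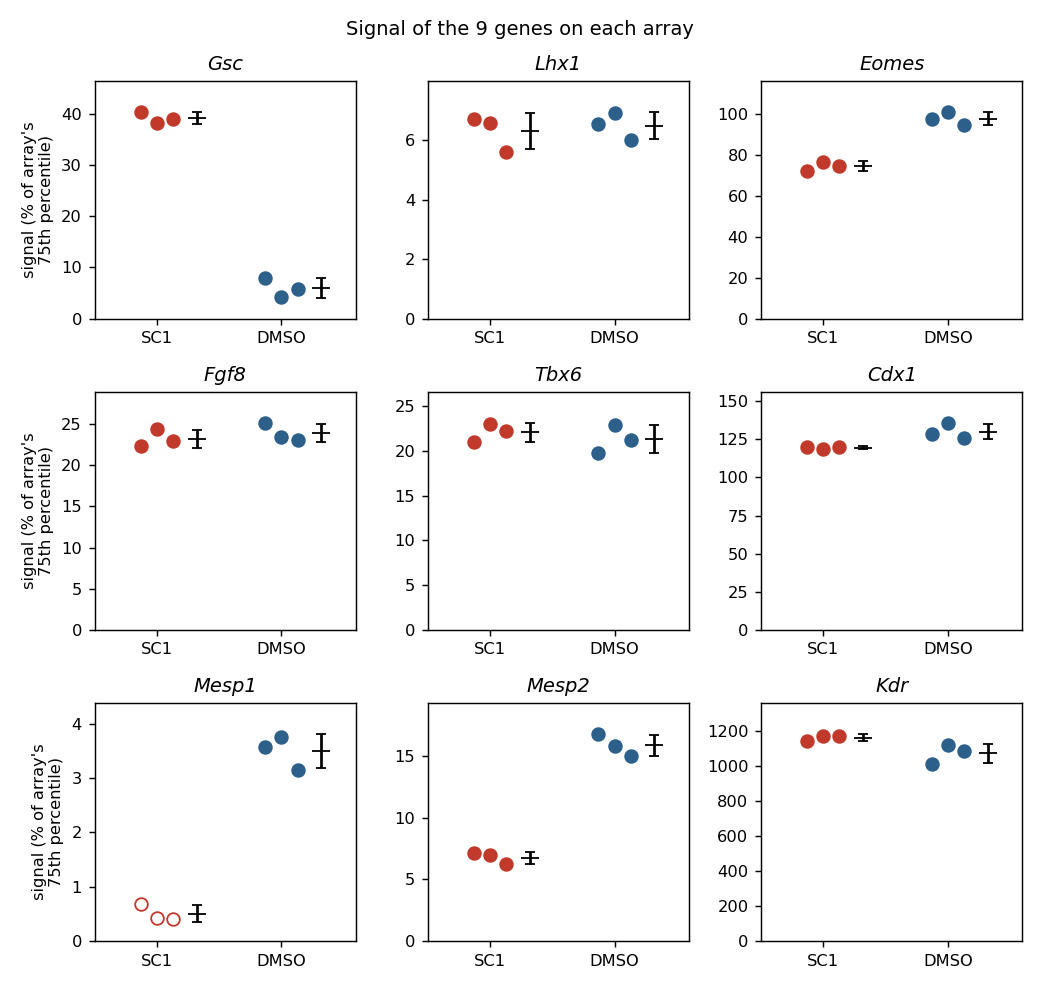
Signal of the brightest probe of each of the 9 genes on the 3 SC1 and the 3 DMSO arrays, as a percentage of the array's 75th percentile, with mean and SD as bars beside the points; open points are arrays where the probe was not well above background. Gsc lies at 38.1% to 40.4% with SC1 and at 4.26% to 7.97% with DMSO, and the Mesp1 points of SC1 are all open.

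The promoters of the 4 genes that changed are shown first, because all 4 belong to the same embryonic programme and did not move together. The windows run from 250 bases before to 50 bases after the gene start, 5′ to 3′ on the gene's strand, from RefSeq on GRCm38.p6. They lie at chr12:104473187-104473486 (minus strand) for Gsc, chr9:118477939-118478238 (plus strand) for Eomes, chr7:79793541-79793840 (minus strand) for Mesp1 and chr7:79810477-79810776 (plus strand) for Mesp2. Capitals mark the matches described after the sequences.
Gsc: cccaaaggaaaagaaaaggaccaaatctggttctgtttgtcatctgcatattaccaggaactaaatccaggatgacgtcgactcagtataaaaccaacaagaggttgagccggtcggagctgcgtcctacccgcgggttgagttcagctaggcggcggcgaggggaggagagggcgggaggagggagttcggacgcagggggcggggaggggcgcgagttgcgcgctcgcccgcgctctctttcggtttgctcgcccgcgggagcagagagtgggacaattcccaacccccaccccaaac
Eomes: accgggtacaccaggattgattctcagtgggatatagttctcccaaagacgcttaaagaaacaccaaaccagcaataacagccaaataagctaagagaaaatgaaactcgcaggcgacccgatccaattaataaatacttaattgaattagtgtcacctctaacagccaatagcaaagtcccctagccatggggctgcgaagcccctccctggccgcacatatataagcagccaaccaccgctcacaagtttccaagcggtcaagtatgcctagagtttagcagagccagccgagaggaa
Mesp1: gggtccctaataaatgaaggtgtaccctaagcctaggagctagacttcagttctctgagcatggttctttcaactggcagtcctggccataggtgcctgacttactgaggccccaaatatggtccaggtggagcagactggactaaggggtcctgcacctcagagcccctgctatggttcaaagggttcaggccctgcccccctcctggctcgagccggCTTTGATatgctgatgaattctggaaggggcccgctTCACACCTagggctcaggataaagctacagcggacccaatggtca
Mesp2: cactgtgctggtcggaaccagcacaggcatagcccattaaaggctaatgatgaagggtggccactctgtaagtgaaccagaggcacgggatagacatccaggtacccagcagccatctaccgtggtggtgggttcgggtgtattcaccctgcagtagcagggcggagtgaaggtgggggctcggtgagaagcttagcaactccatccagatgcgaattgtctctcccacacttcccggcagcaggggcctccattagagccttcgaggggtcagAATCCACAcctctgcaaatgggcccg

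The windows were searched on both strands for 5 motifs of factors that act in the primitive streak. The T-box motif TCACACCT was found in Mesp1, at bases 6 to 13 after the start, and in 1.28% of 32851 promoters of the same length. The TCF/LEF motif CTTTGAT was also found in Mesp1, at bases -31 to -25, and in 3.73% of all promoters. The FOXH1 motif TGTGGATT was found in Mesp2 on the opposite strand, at bases 25 to 32, and in 0.855% of all promoters. No match overlapped another. The ETS motif CCGGAAGT, present in 3.89% of all promoters, and the palindromic SMAD motif GTCTAGAC, present in 0.213%, had no match in these genes. Gsc and Eomes had no match to any of the 5. Promoters of 7 of the 9 genes were in the table, all but Fgf8 and Cdx1, and Lhx1, Kdr and Tbx6 also had no match.

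Base composition set the 4 windows apart from each other. The Gsc window was 60.3% G and C with 25 CpG pairs, and the Eomes window 47.3% with 10 CpG pairs. Mesp1 had 55.3% with 4 CpG pairs and Mesp2 had 57.7% with 10 CpG pairs. The medians over all promoters were 52.7% and 7 CpG pairs. Mesp1 and Mesp2 are neighbours on chromosome 7 with no other gene listed between them, and they are read in opposite directions, away from each other.

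Gsc encodes goosecoid, a homeobox repressor of the organizer and of anterior mesendoderm. Its signal was 40.4%, 38.1% and 39.0% on SC1 arrays 1, 2 and 3, against 7.97%, 4.26% and 5.73% on DMSO arrays 1, 2 and 3. The mean was 39.2% ± 1.12 with SC1 and 5.98% ± 1.87 with DMSO (SD, n = 3 each). The groups were far apart, and the spread was wider among the DMSO arrays. The log2 fold change was 2.76 (SE 0.218, limma adjusted p = 0.000313). By this measure Gsc ranked 20 from the highest among all genes tested. All 6 arrays called the probe well above background. With normexp background correction, which adds an offset of 50 to every signal and so compresses dim probes, the log2 fold change was 1.54 (adjusted p = 5.01e-08) after quantile normalization.

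Lhx1 encodes a LIM homeobox factor of the organizer that is required for head formation. Its signal was 6.73%, 6.59% and 5.60% on the SC1 arrays, against 6.54%, 6.93% and 6.02% on the DMSO arrays. The groups overlapped. The log2 fold change was -0.045 with a 95% confidence interval of -0.27 to 0.18 (limma adjusted p = 0.735). Its sign turned under normexp correction with 75th percentile scaling, to 0.13.

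Eomes encodes a T-box factor that specifies definitive endoderm and anterior mesoderm downstream of Nodal. Its brighter probe read 71.9%, 76.5% and 74.7% with SC1, against 97.4%, 100.8% and 94.6% with DMSO. The groups did not overlap, and each varied by a few percent of its mean. The mean fell to 74.4% ± 2.32 in SC1 cells, against 97.6% ± 3.11 in DMSO cells (SD, n = 3 each), a 1.31-fold decrease with a log2 fold change of -0.39 (SE 0.0467, limma adjusted p = 0.0015). The dimmer Eomes probe read 12.4%, 8.99% and 10.8% with SC1, against 15.1%, 15.7% and 12.5% with DMSO. Its log2 fold change of -0.43 was of like size, but with an SE of 0.144 it did not pass (limma adjusted p = 0.0631). When slide rows entered the fit as a block, the brighter probe no longer passed (adjusted p = 0.0585).

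Fgf8 encodes an FGF ligand of the primitive streak that mesoderm cells need to migrate away from it. The brightest of its 3 probes read 22.3%, 24.4% and 22.9% with SC1, against 25.1%, 23.5% and 23.1% with DMSO. The groups overlapped, and the log2 fold change was -0.042 (95% interval -0.18 to 0.095, limma adjusted p = 0.605). The next probe had a log2 fold change of -0.032 (limma adjusted p = 0.864). The third was not well above background on any array.

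Tbx6 encodes a T-box factor that directs cells to paraxial mesoderm. Its brighter probe read 21.0%, 23.1% and 22.2% with SC1, against 19.8%, 22.9% and 21.2% with DMSO, with a log2 fold change of 0.053 (95% interval -0.12 to 0.22, limma adjusted p = 0.592). The other Tbx6 probe read 9.53%, 11.5% and 9.98% with SC1, against 12.1%, 11.6% and 13.1% with DMSO. It had a log2 fold change of -0.25 (limma adjusted p = 0.072). The brighter probe overlapped between the groups and the other did not. Neither passed, and their log2 fold changes differed by 0.30. Averaged over both probes, the log2 fold change of Tbx6 was -0.098 (limma adjusted p = 0.289).

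Cdx1 encodes a caudal-type homeobox factor of posterior patterning that responds to WNT signals. It read 120.3%, 118.4% and 120.0% with SC1, against 128.6%, 135.6% and 125.8% with DMSO. All SC1 values lay below all DMSO values. The difference was small, a log2 fold change of -0.12 (95% interval -0.23 to -0.011), and did not pass over all genes (limma adjusted p = 0.0822).

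Mesp1 encodes a basic helix-loop-helix factor of the first mesoderm and of heart precursors. Its signal was 0.680%, 0.429% and 0.398% with SC1, against 3.57%, 3.76% and 3.15% with DMSO. It was well above background on all 3 DMSO arrays and on none of the SC1 arrays, so the SC1 values are only an upper limit. The decrease was at least 1.84-fold by the following rule. Each SC1 array was set at the dimmest well-above-background signal found on it, or at the Mesp1 value where that was higher. This rule gives no strict limit, because a spot can read above that signal without being called. A Kdr spot on DMSO array 1 read 10.9 signal units and was not called, against a dimmest called signal of 9.31 there. The fitted log2 fold change of -2.84 (SE 0.21, limma adjusted p = 0.000248) rests on SC1 signals below the detection call. With normexp correction it was -0.37 after quantile normalization and -0.21 (adjusted p = 0.00618) after 75th percentile scaling. Mesp1 was dim in DMSO cells too, at 16.8 to 20.004 signal units, where the dimmest probes that passed the detection call read 8.82 to 9.31. It entered the test only through the DMSO arrays and therefore had to be lower with SC1.

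Mesp2, the neighbour of Mesp1, encodes a related factor that sets the boundaries of somites. Its signal was 7.10%, 6.997% and 6.22% with SC1, against 16.8%, 15.9% and 15.1% with DMSO. Every SC1 array was below every DMSO array, and all 6 were well above background. The mean fell to 6.77% ± 0.484 in SC1 cells, against 15.9% ± 0.867 in DMSO cells (SD, n = 3 each). This was a 2.35-fold decrease, with a log2 fold change of -1.23 (SE 0.0715, limma adjusted p = 0.000107). Of all genes tested 1.29% had a lower one. With normexp correction the log2 fold change was -0.60 after quantile normalization and -0.50 after 75th percentile scaling (adjusted p = 4e-06 and 4.55e-06).

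**Figure D2:**
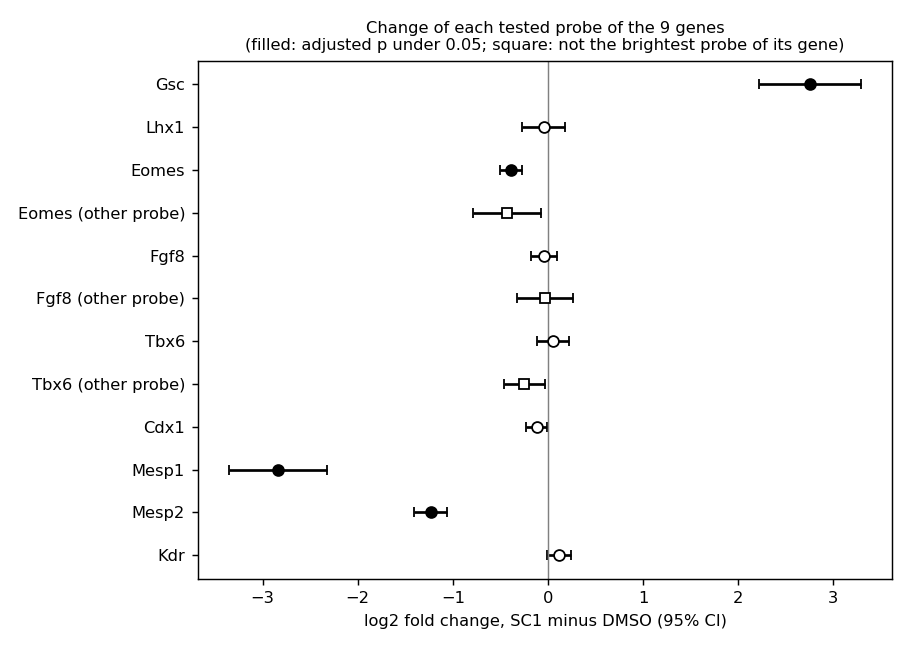
Log2 fold change, SC1 minus DMSO, of the 12 tested probes of the 9 genes, with 95% confidence intervals from limma (n = 3 per group); filled symbols passed the threshold and squares are probes that are not the brightest of their gene. Gsc stands at 2.76, Mesp2 at -1.23 and Mesp1 at -2.84, a fitted value that rests on SC1 signals below the detection call, and the intervals of the unfilled probes all lie between -0.79 and 0.26.

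Kdr encodes the VEGF receptor FLK1 of blood and vessel precursors, and its 2 probes differed. The probe with a single spot read 1142%, 1175% and 1173% with SC1, against 1014%, 1118% and 1085% with DMSO. All SC1 values were above all DMSO values. The log2 fold change was 0.12 (95% interval -0.0050 to 0.24) and did not pass (limma adjusted p = 0.117), but it passed under 4 of 21 alternative settings. Before scaling the spot read 5201 to 5632 signal units with SC1 and 5465 to 5950 with DMSO, so its direction rests on the scaling of the arrays. The other probe is printed in 10 spots on each array. Averaged over its spots it was not well above background on any array, so it was not tested and no fold is given. Its 29 usable spots on the SC1 arrays read 1.76 to 6.83 signal units, none of them well above background. Its 28 usable spots on the DMSO arrays read 4.49 to 15.5 signal units, and 3 of them were well above background, all on DMSO array 2. On these dim spots the averages were 0.5001%, 0.674% and 0.740% with SC1, against 1.29%, 1.66% and 1.58% with DMSO. These averages lie below the detection call in both groups, so no direction is read from them or set against that of the bright probe. The files do not give probe sequences or positions, and which of the 2 probes reports the Kdr transcript was not tested.

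**Figure D3:**
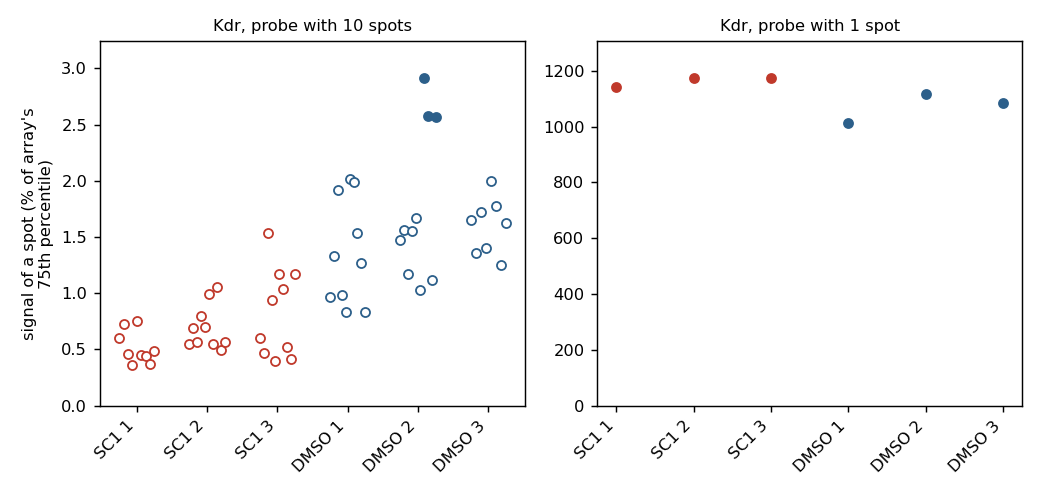
Every usable spot of the Kdr probes on the 3 SC1 and the 3 DMSO arrays, as a percentage of the array's 75th percentile, with filled points well above background. In the left panel the spots on an array are repeats of 1 probe, the spots of the groups overlap, and only 3 DMSO spots are filled. The array averages of that probe, all below the detection call, are 0.50% to 0.74% with SC1 and 1.29% to 1.66% with DMSO. In the right panel the single spot reads 1142% to 1175% with SC1 and 1014% to 1118% with DMSO.

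The 6 arrays were on 1 slide, scanned together, with the DMSO arrays and SC1 array 1 in one column and SC1 arrays 2 and 3 in the other. Within the shared column, SC1 array 1 minus the mean of the DMSO arrays gave log2 differences of 2.80 for Gsc, -1.16 for Mesp2 and -0.44 for Eomes. SC1 array 2 and DMSO array 1 shared a row, and their differences were 2.26, -1.26 and -0.35 in the same order of genes. SC1 array 3 and DMSO array 2 shared another row and gave 3.20, -1.35 and -0.43. The groups did not overlap for these 3 genes, so the direction was fixed in every comparison and only the sizes are informative. The row comparisons cross columns, so group and column cannot be told apart in them. Mesp1, not detected on the SC1 arrays, is left out of these comparisons. The 75th percentile of the signal was 443.3 to 493.3 on the SC1 arrays and 532.2 to 539 on the DMSO arrays, and 63.21% to 65.12% of the probes were well above background with SC1, against 65.04% to 65.61% with DMSO.

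All 10 embryonic stem cell markers, among them Pou5f1, Sox2 and Nanog, were well above background on all 6 arrays. They were not all unchanged: by the test 3 of the 10 rose and 3 fell. Their log2 fold changes ran from -2.36 (Utf1) to 1.10 (Tfcp2l1). Markers of other cell types were detected too. The summed signal of 6 primitive endoderm markers was 96 to 107.8 with SC1 and 93.76 to 98.23 with DMSO, in percent of the 75th percentile. That of 7 embryonic fibroblast markers was 167.9 to 179.1 with SC1 and 219 to 234.7 with DMSO, with Lum and Postn not above background on any array. The sum does not stand for the members: Thy1 fell (log2 fold change -1.09), while Dcn, Col1a1 and Col3a1 rose (1.18, 0.81 and 0.50). The sum of 4 neural progenitor markers was 248.6 to 265.7 with SC1 and 310.1 to 316.8 with DMSO. For 4 trophoblast markers it was 46.06 to 51.95 with SC1 and 29.78 to 31.55 with DMSO, with Elf5 not above background. By the test 2 of 6 tested endoderm markers rose and 0 fell, 1 of 4 neural markers rose and 2 fell, and 2 of 3 trophoblast markers rose and 1 fell. Over all genes 18.1% rose and 20.2% fell, and counts of so few markers are not read as a result. The endoderm marker Gata4 passed narrowly (log2 fold change 0.18, limma adjusted p = 0.049) and not in the fit of every probe. The trophoblast marker that fell, Cdx2, entered the test only through the DMSO arrays. The part of such cells in the results was not tested, and in bulk RNA fewer cells of a type and less RNA per cell cannot be told apart.

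Genes that act beside the 9 in the embryo were counted by list. The counts of each list stand beside 18.1% higher and 20.2% lower over all genes tested. Of 14 organizer, axial mesoderm and definitive endoderm genes, 10 were tested, 5 rose, 1 fell and 4 did not pass. The median log2 fold change was 0.32, against -0.0052 over all genes. Dkk1, 1 of the 5 and named after its value was seen, was well above background on 3 SC1 arrays but only 1 DMSO array. It entered the test only through the SC1 arrays, and with the filter on all 6 arrays 4 genes rose. The median of 0.32 includes Dkk1 and is not read as a shift of the list. Fst, which encodes the activin antagonist follistatin, rose 3.33-fold (limma adjusted p = 8.26e-05). The chemokine receptor gene Cxcr4 rose 1.36-fold and the endoderm factor gene Foxa2 1.58-fold. The 2 Foxa2 probes had log2 fold changes of 0.66 and 1.10, and only 1 of them passed in the fit of every probe. Otx2, a factor of the anterior epiblast, fell 3.95-fold. The organizer antagonist genes Chrd and Nog had log2 fold changes of 0.069 and 0.22 (limma adjusted p = 0.487 and 0.429) and were named after their values were seen.

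Primitive streak, posterior and paraxial mesoderm genes moved both ways. Of 20 such genes 12 were tested, 3 rose, 5 fell and 4 did not pass (median -0.039). The Notch ligand gene Dll1 rose 2.24-fold and Snai1, which encodes a repressor of E-cadherin active when cells leave the streak, rose 2.69-fold. Wnt8a, which encodes a WNT ligand, fell 4.47-fold. The adjusted p of these 3 was 2.48e-05 to 4.63e-05 in limma. Cdx2, a relative of Cdx1, and the somite gene Meox1 were above background on the DMSO arrays only, through which they entered the test. By the rule used for Mesp1 they were at least 1.40-fold and 1.82-fold lower with SC1 (named after their values were seen). The list's median includes both genes. Setting them at these folds could not move it, because they stay on the same side of it. The other 8 of the 20 were not well above background on all arrays of either group.

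Lateral, cardiac, blood and endothelial mesoderm genes gave 8 higher, 2 lower and 3 not passing among 13 tested of 20 (median 0.71). Over all genes 18.1% were higher and 20.2% lower. Isl1 and Gata4, named after their values were seen, are among the 8. Isl1 was well above background on only 2 DMSO arrays and entered the test through the SC1 arrays. The median of 0.71 includes Isl1 and is not read as a shift of the list. Gata4 passed narrowly (limma adjusted p = 0.049) and did not pass in the fit of every probe. The blood factor genes Tal1 and Gata1 rose 4.32-fold and 2.46-fold. The endothelial adhesion gene Pecam1, which embryonic stem cells also express, rose 1.86-fold. The receptor gene Pdgfra, also among the primitive endoderm markers above, rose 2.11-fold. The limma adjusted p of Tal1, Gata1, Pecam1 and Pdgfra was 2.14e-05 to 0.000224. Etv2, a factor upstream of Kdr in the embryo and named after its value was seen, fell 1.68-fold (limma adjusted p = 0.000544).

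The signalling genes that feed this programme were counted in the same way, beside the same 18.1% higher and 20.2% lower over all genes. Of 14 tested Nodal and activin genes 4 rose, 3 fell and 7 did not pass (median 0.035). Nodal itself rose 1.40-fold (limma adjusted p = 0.000324), while its co-receptor gene Tdgf1 fell 2.62-fold and its antagonist gene Lefty2 fell 1.52-fold. Lefty1, which encodes another Nodal antagonist and was named after its value was seen, rose 1.34-fold (limma adjusted p = 0.00412). Smad7, which encodes an inhibitory SMAD, fell 3.73-fold. Among 13 tested WNT genes 2 rose, 5 fell and 6 did not pass (median -0.056). Dkk1, which entered only through the SC1 arrays, is 1 of the 2 and is counted in the median. Lef1, Fzd7 and Tcf7 were lower by 2.40-fold, 1.93-fold and 1.51-fold on their brightest probes, and Wnt8a as above. Of 16 tested FGF and ERK genes 3 rose, 8 fell and 5 did not pass (median -0.40). Dusp6 and Spry2, feedback inhibitors of the pathway, fell 31.7-fold and 3.59-fold, both measured on all 6 arrays. Spry4, another such inhibitor, was at least 24.5-fold lower by the rule used for Mesp1. None of the SC1 arrays detected it, so that it entered the test only through the DMSO arrays. Fgf5, also among the 8 and named after its value was seen, was detected on 2 SC1 arrays and entered in the same way. The ligand gene Fgf4 rose 1.85-fold. The plot of the related lists shows every tested gene.

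**Figure D4:**
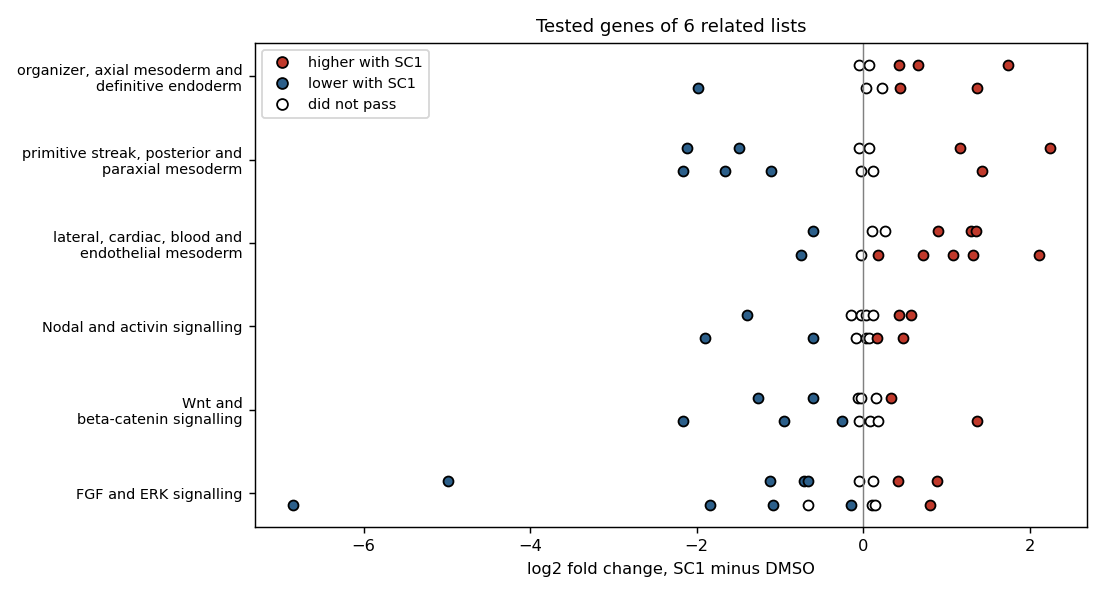
Log2 fold change, SC1 minus DMSO, of every tested gene of 6 related lists, each point 1 gene on its brightest probe, coloured by whether it passed with SC1 higher, passed with SC1 lower, or did not pass. All lists hold points on both sides of 0, and the leftmost, in the FGF and ERK list, are Spry4 at -6.85, a fitted value below the detection limit, and Dusp6 at -4.99.

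The genes whose pattern over the 6 arrays was most like that of Gsc, by Euclidean distance between log2 values after subtracting each gene's mean, were Gsx2, Uts2 and Galnt17. All were well above background on the 3 SC1 arrays. On the DMSO arrays Gsx2 and Uts2 were not above background at all, and Galnt17 was on 1 of 3. The same measure named Hoxb5, Ntn1 and Fgf1 for Mesp1. Hoxb5 was, like Mesp1, above background on the DMSO arrays only. Ntn1 and Fgf1 were measured on all 6 arrays, with log2 fold changes of -3.13 and -2.67 (limma adjusted p = 4.2e-05 and 2.35e-05). No distance or order is given, because undetected values of Mesp1, Hoxb5, Gsx2, Uts2 and Galnt17 enter it and are only upper limits. With 3 arrays per group this likeness mostly reflects the size of the difference between the groups.

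**Figure D5:**
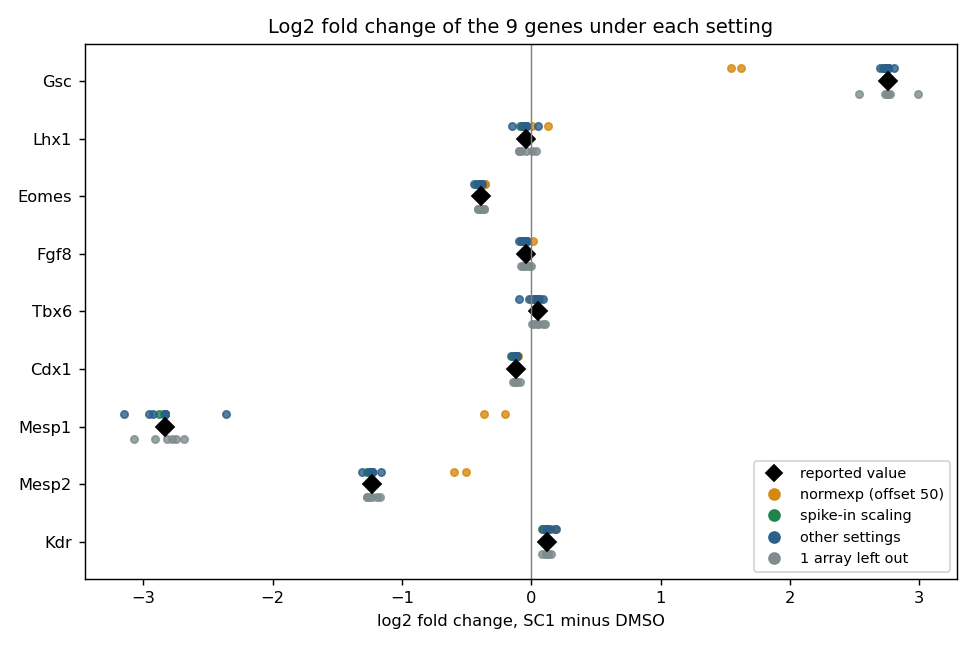
Log2 fold change of each of the 9 genes as reported (diamonds) and under each alternative setting (points above the line of the gene) or with 1 array left out (grey points below it). Gsc and Mesp2 keep their sign throughout and shrink most with normexp correction, to 1.54 and -0.50; the Mesp1 points rest on SC1 signals below the detection call; points of Fgf8, Lhx1 and Tbx6 lie on both sides of 0.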

How the data were processed

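Spots were quantified with Agilent Feature Extraction 10.7, per the submitters' processing notes. The deposited intensity of each spot is corrected for background and spatial trend within its array, per the file headers, and flags mark spots well above background or outlying. The authors also deposited a log2 matrix whose method is not stated; every column has the median 5.17. The array design refers to mm9, per the file headers.

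Control and outlying spots (137 to 201 non-control ones per array) were left out, no spot was saturated, and log2 intensity was averaged over spots of a probe. The array's 75th percentile over probes was subtracted. A probe counted as well above background when most of its spots were, and was kept when this held on all 3 arrays of a group: 35288 of 55622 probes. RefSeq symbols were found for 27212 of the 55622. The brightest probe stood for a gene. The test of SC1 against DMSO used limma 3.58.1 under R 4.3.3 (two-sided, Benjamini-Hochberg over 25421 genes and intervals), and the code was tested on simulated data. P-values of other probes come from a fit of every probe. Named genes were the 9, up to 4 passing genes per related list with the smallest p, and the 3 nearest patterns; 1 gene that this rule names is not reported here. The members and lists were chosen with earlier results of these data known. Array positions give 2 numbers, read here as column and row. Alternatives were other scalings, normexp on the median spot and background signals, the deposited matrix, other filters and probe rules, an intensity trend, blocks, a stricter threshold and leaving out each array. The number of arrays limits the precision.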

Additional observations from a re-analysis of the deposited data

How the results depend on the processing

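Gsc and Mesp2 kept their direction and stayed past the threshold under every alternative run. Their groups did not overlap, so leaving out an array could not turn their direction. The direction of Mesp1 was fixed by its entry through the DMSO arrays, and its alternatives say nothing of stability; it could not be tested on probes well above background on all 6 arrays. Leaving out each array in turn gave log2 fold changes of 2.54 to 2.99 for Gsc, -1.27 to -1.17 for Mesp2 and -0.41 to -0.37 for Eomes. In each of these runs 4 genes were past the threshold, with Mesp1, whose direction was fixed, among them. Eomes did not pass with the slide row as a block (-0.39, adjusted p = 0.0585), a fit that leaves 1 residual degree of freedom before limma's pooling. Kdr passed with quantile normalization (0.18), normexp with quantile normalization (0.17), the deposited log2 matrix (0.19) and an intensity trend with a robust prior (0.12), with adjusted p from 0.0191 to 0.0385. The bright Kdr probe was at 0.079 with spike-in scaling. Blocking on rows left 3 genes past the threshold in the organizer list, against 6, and 4 in the WNT list, against 7. By direction, higher organizer genes numbered 3 with spike-in scaling and 2 with rows blocked, against 5. Higher Nodal genes numbered 2 with spike-in scaling and with rows or columns blocked, against 4. Lower streak genes numbered 3 with normexp and 75th percentile scaling, the filter on all 6 arrays, rows blocked or the stricter threshold, against 5. Higher mesoderm genes of the lateral list numbered 5 with rows blocked, against 8, and lower ones 1 with columns blocked, against 2. Higher WNT genes numbered 0 with rows blocked and 1 with spike-in scaling, the filter on all 6 arrays or the stricter threshold, against 2. Fgf8, Lhx1 and Tbx6 passed under no alternative and changed sign under some, and Cdx1 passed under none and stayed negative. The count over all genes was 9752, against 5067 with scaling to 8 spike-in probes, 5542 when columns of the slide were the block, 3324 when rows were and 5791 at an adjusted p under 0.01. The share of changed genes that were higher was 47.3%, against 58.2% with normexp and 75th percentile scaling. With the replicate block, the replicate number as a block, 7914 genes passed, and the same 4 of the 9 did (Gsc adjusted p = 0.00329, Eomes 0.0108, Mesp2 0.00165). Same-numbered samples did not deviate together (correlations -0.0365 to -0.0133), so the numbers are not taken to pair the samples. The highest correlations were those of arrays that share a row. They were 0.0726 for SC1 array 2 with DMSO array 1 and 0.0791 for SC1 array 3 with DMSO array 2. Next came SC1 array 1 with DMSO array 3, at 0.0566, which do not share a row. Dim signal limits Mesp1 and the Kdr probe with 10 spots.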
